A study of Mus musculus with 6 samples.

Results

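Costimulatory ligands and receptors of the tumour necrosis factor (TNF) superfamily were examined in mouse oral tumours, as the 9 rows of the deposited expression table that carry the symbols Cd27, Tnfrsf4, Tnfrsf9, Tnfrsf18, Tnfrsf14, Cd70, Tnfsf4, Tnfsf18 and Tnfsf14. All 9 symbols of the list were present among the 770 genes of the table, 5 of them receptors and 4 ligands. The tumours were oral squamous cell carcinomas induced in mice by 4NQO, a chemical carcinogen, and were formalin-fixed and paraffin-embedded before RNA extraction. The samples formed 2 groups of 3, tumours of mice given agonistic anti-CD40, an antibody that activates the receptor CD40, and tumours of mice given vehicle. The sources used here give no mouse strain, age, dose, schedule or antibody clone. Whether the replicates of a group were separate animals is not stated either, so p-values cover only the scatter among the 6 samples, some of which may be technical. The comparison addressed how expression in 4NQO tumours differs after CD40 activation.

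Receptors of this family sit mainly on lymphocytes and bind ligands on antigen-presenting and other cells. Binding recruits TRAF adaptor proteins to the receptor tail and switches on NF-κB and stress kinase signalling, which sustains the division and survival of T cells that have already met antigen. CD27, OX40, 4-1BB, GITR and HVEM are the proteins of Cd27, Tnfrsf4, Tnfrsf9, Tnfrsf18 and Tnfrsf14, and CD70, OX40L, GITRL and LIGHT those of Cd70, Tnfsf4, Tnfsf18 and Tnfsf14. CD40 itself belongs to the same receptor family, and its engagement on antigen-presenting cells is known to induce CD70, OX40L and the ligand of 4-1BB. In tumours OX40, 4-1BB and GITR are known from activated and regulatory T cells.

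Depth and background set what could be read from these genes. The deposited log2 values rest on whole counts, each multiplied by a factor of its library, and the count behind every value could be recovered. Counts over the 770 genes summed to 333400 to 497475 in anti-CD40 libraries and 357258 to 578598 in vehicle libraries. A gene was taken as above background where its count exceeded the mean of the library's 8 negative control probes plus 2 SD, a limit of 24.7 to 26.6 counts. Of 4 epithelial markers of the labelled carcinoma, 3 were above background in every library, among them the E-cadherin gene Cdh1.

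Most of the 9 genes lay near background. Tnfrsf14 alone was above the limit in all 6 libraries, which is 11.1% of the 9 genes, against 523 of all 770 (67.9%). Tnfrsf18 and Tnfsf14 were above it in 5 libraries, Tnfrsf4 and Tnfrsf9 in 3, and Tnfsf4 and Tnfsf18 in 2. Cd27 and Cd70 were above it in none, as were 82 of all genes (10.6%). The anti-CD40 libraries 1, 2 and 3 had 3, 5 and 2 of the 9 genes above background, and the vehicle libraries 6, 4 and 6. The lowest number in each group fell in its shallowest library, with 333400 counts in anti-CD40 3 and 357258 in vehicle 2.

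**Figure D1:**
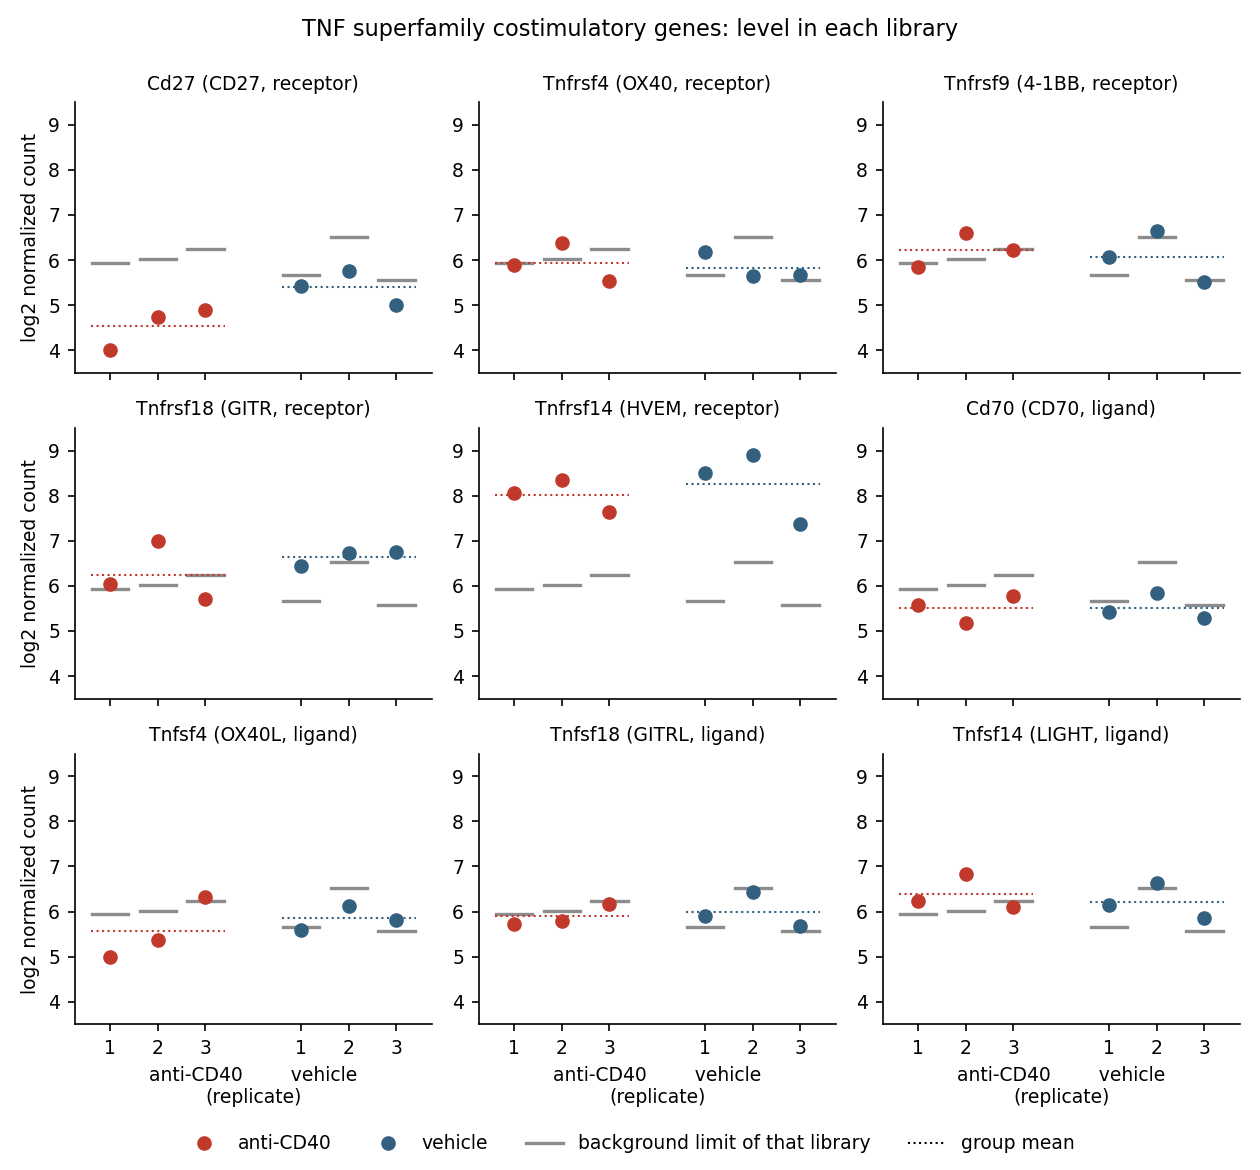
Level of each of the 9 genes in log2 normalized counts, with the 3 anti-CD40 libraries left of the 3 vehicle libraries in each panel. Points are single libraries, dotted lines are group means and grey bars are the background limit of each library. Tnfrsf14 lies above the limit everywhere, and Cd27 and Cd70 lie at or below it everywhere.

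None of the 9 genes passed the test between the groups. A two-sided limma fit to all log2 values, with p-values adjusted by Benjamini-Hochberg, called 0 of 770 genes (0.0%) at the threshold of 0.05, and 25 (3.25%) had an unadjusted p under it. Limma-voom on the recovered counts also called 0, with 31 at an unadjusted p under 0.05. The adjusted p was 0.974 for 8 of the 9 genes and 0.9999 for Cd70, and 1 of the 9, Cd27, had an unadjusted p under 0.05. In the mean, 4 of the 9 were higher in anti-CD40 tumours and 5 lower, with a median difference of −0.11 log2, beside 0.04 over all 770 genes. The differences ran from −0.85 for Cd27 to 0.18 for Tnfsf14 and are anti-CD40 minus vehicle throughout. After quantile normalization, or with libraries centred on their medians or on housekeeping genes, 4, 3 and 4 of the 9 were higher. Centring on the negative controls lowers the difference of every gene by the same amount, so that the median of all genes was −0.15 in place of 0.04, and the difference was then negative for all 9. Because the table holds bulk tumour RNA, fewer cells of a type and less RNA per cell cannot be told apart.

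**Figure D2:**
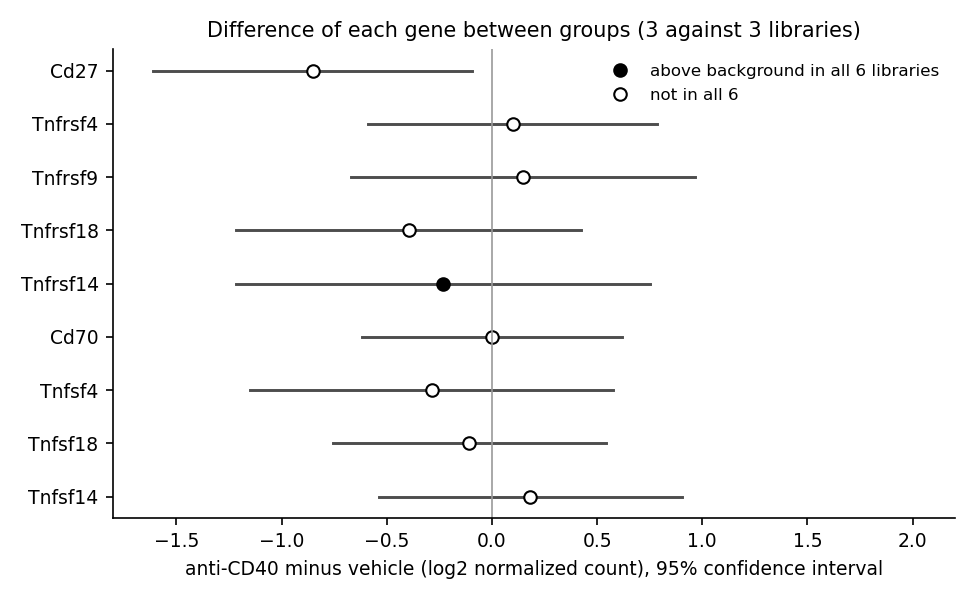
Difference of each gene between 3 anti-CD40 and 3 vehicle libraries on the log2 scale, with its 95% confidence interval from limma. Filled points were above background in all 6 libraries. The interval of Cd27 ends at −0.09, below 0, and the other 8 intervals cross 0.

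Tnfrsf14, the gene of HVEM, was the only one of the 9 with a level well clear of background. HVEM binds LIGHT and lymphotoxin alpha as activating ligands and BTLA and CD160 as inhibitory partners, and it is found on lymphocytes, myeloid cells and epithelia. Its level was 8.06, 8.35 and 7.65 log2 in anti-CD40 libraries 1, 2 and 3, against 8.50, 8.90 and 7.36 in vehicle libraries 1, 2 and 3. These stood on 115, 132 and 70 counts in the anti-CD40 libraries and 195, 144 and 93 in the vehicle libraries. The 3 anti-CD40 values fell inside the range of the vehicle values, since vehicle 1 and 2 lay above all of them and vehicle 3 below. The group means were 8.02 ± 0.35 in anti-CD40 and 8.25 ± 0.80 in vehicle tumours (SD, n = 3 each), a difference of −0.23 (SE 0.42, 95% confidence interval −1.22 to 0.75). Leaving out 1 library moved that difference to between −0.68 without vehicle 3 and 0.09 without vehicle 2. It was −0.40 without anti-CD40 2, −0.045 without anti-CD40 3 and −0.11 without vehicle 1. Counting alone would give an SD of 0.14 in anti-CD40 and 0.12 in vehicle libraries, so the spread between samples was larger than counting error.

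The genes closest to Tnfrsf14 in their pattern over the libraries were named by a distance. Among the 522 other genes above background in all 6 libraries, profiles were compared by the root mean square difference of library values after each gene was centred on its own mean. Defb1, which encodes the epithelial antimicrobial peptide beta-defensin 1, was nearest at 0.082 log2, followed by the T cell receptor zeta chain gene Cd247 at 0.161 and the phagocyte oxidase gene Cybb at 0.171. The median over the 522 genes was 0.534. Defb1 was 10.73, 10.95 and 10.10 log2 in the anti-CD40 libraries, against 11.19, 11.45 and 10.01 in the vehicle libraries. Both Tnfrsf14 and Defb1 were highest in vehicle 2 and lowest in vehicle 3. Over all genes, vehicle 3 and anti-CD40 3 had the lowest library medians, 7.68 and 7.90 log2. The medians were 7.99 and 8.19 in anti-CD40 1 and 2, and 8.17 and 8.18 in vehicle 1 and 2. Vehicle 1, 2 and 3 held their group's highest value for 42.7%, 49.1% and 8.18% of all genes. The part of such library-wide levels in the likeness was not tested. The likeness rests on 6 libraries and was picked from many genes, so it is a description with no test.

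**Figure D3:**
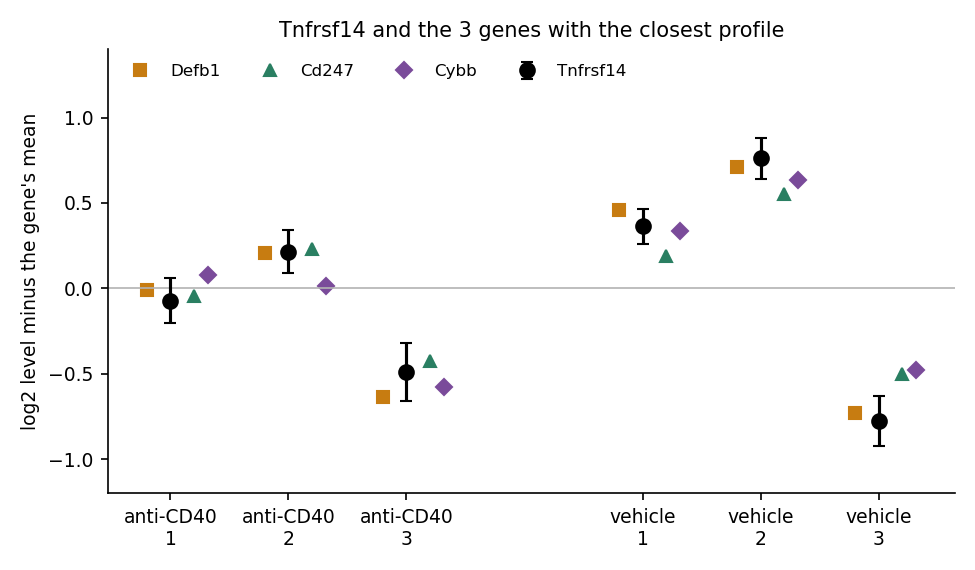
Level of Tnfrsf14, Defb1, Cd247 and Cybb in each library after subtraction of the gene's own mean (log2), with anti-CD40 libraries left of vehicle libraries. Bars on Tnfrsf14 are the SD expected from counting alone, and symbols are set side by side for legibility. All 4 genes are highest in vehicle 2 and low in anti-CD40 3 and vehicle 3. Anti-CD40 3 and vehicle 3 also have the lowest medians over all genes, 7.90 and 7.68 log2.

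Tnfrsf18, the gene of GITR, a receptor carried at rest by regulatory T cells and raised on activated T cells, had the tightest vehicle group. Its level was 6.05, 6.98 and 5.70 log2 in the anti-CD40 libraries, against 6.45, 6.73 and 6.75 in the vehicle libraries. Anti-CD40 1 and 3 were lower than every vehicle library, while anti-CD40 2 was higher than all of them, so the groups overlapped. The recovered counts were 27, 50 and 17 in the anti-CD40 libraries and 45, 31 and 60 in the vehicle libraries, and only the count of 17 in anti-CD40 3 was under the background limit. The difference was −0.40 (SE 0.35, 95% confidence interval −1.22 to 0.43, unadjusted p = 0.295 and adjusted p = 0.974 with limma). With 1 library left out it ran from −0.76 without anti-CD40 2 (adjusted p of 0.664 from limma) to −0.12 without anti-CD40 3. Without anti-CD40 2 the groups did not overlap, as held for 24.8% of all genes in that setting, beside 10.3% with all libraries. It was −1.04 with background subtracted.

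Tnfrsf4 and Tnfrsf9, the genes of OX40 and 4-1BB, receptors that appear on T cells after activation, were at the edge of detection. Tnfrsf4 was 5.89, 6.37 and 5.54 log2 in the anti-CD40 libraries, against 6.18, 5.66 and 5.67 in the vehicle libraries. It was above background in 1 anti-CD40 and 2 vehicle libraries, with intermixed values. The difference of 0.10 had a 95% confidence interval of −0.59 to 0.78. Tnfrsf9 was 5.84, 6.60 and 6.22 log2 in the anti-CD40 libraries, against 6.06, 6.64 and 5.52 in the vehicle libraries. Every Tnfrsf9 count, between 23 and 38, was higher than all 8 negative controls of its library, although only 3 passed the stricter limit. The difference of 0.15 had a 95% confidence interval of −0.67 to 0.96. Without anti-CD40 2, the differences were −0.12 for Tnfrsf4 and −0.046 for Tnfrsf9, and that of Tnfrsf9 was −0.13 without vehicle 3. Summed counts, which are not corrected for depth, were 71 in anti-CD40 and 78 in vehicle libraries for Tnfrsf4, and 86 and 87 for Tnfrsf9.

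Cd27 was the 1 gene of the 9 whose groups did not overlap, and it was also the gene with the lowest counts. CD27 is carried by naive and memory T cells and by some B and natural killer cells. Its level was 4.00, 4.73 and 4.89 log2 in the anti-CD40 libraries, against 5.43, 5.75 and 5.002 in the vehicle libraries. All 3 anti-CD40 values lay below all 3 vehicle values, a pattern shown by 79 of the 770 genes in either direction (10.3%) and by 27 in this one (3.51%). These values stood on 5, 9 and 9 counts in the anti-CD40 libraries and 21, 15 and 16 in the vehicle libraries. In anti-CD40 1 and 2 all 8 negative controls had at least as many counts as Cd27, in anti-CD40 3 it was 6 of 8, and in vehicle libraries 1, 2 and 3 it was 2, 3 and 3 of 8. Cd27 averaged 0.539 times the mean negative control in anti-CD40 libraries and 1.19 times in vehicle libraries. The comparison was thus between values under and slightly over the mean of probes with no target, all below the background limit.

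The difference of Cd27 was −0.85 (SE 0.32, 95% confidence interval −1.61 to −0.09), with an unadjusted p of 0.0323 and an adjusted p of 0.974 from limma. Among all genes 25 (3.25%) had an unadjusted p under 0.05, and 8 (1.04%) were also lower in anti-CD40 tumours. The difference kept its sign in each of the 16 alternatives that could give one, and its adjusted p from limma ranged from 0.251 to 0.997. It lay between −2.44 with background subtracted and −0.28 with 64 added on the linear scale. The mean-variance trend, robust eBayes and the replicate block cannot change the difference, which stayed at −0.85. Background subtraction set values under 1 to a floor of 1, and all 3 anti-CD40 values of Cd27 lay at that floor. Counting alone would give an SD of 0.42 in anti-CD40 and 0.31 in vehicle libraries, beside observed SDs of 0.48 and 0.38.

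T cell content gives a measured setting for these receptors. Of 16 T cell marker genes measured, 6 were above background in all libraries and 3 in none, and limma called 0 of 16 (unadjusted p under 0.05 for 1, the surface receptor gene Cd5). In the mean 2 of the 16 were higher in anti-CD40 tumours and 14 lower (median −0.22), beside a median of 0.04 over all genes. The summed normalized level of the 16 was 1910, 2880 and 2113 in anti-CD40 libraries 1, 2 and 3, against 3036, 2358 and 2086 in vehicle libraries 1, 2 and 3. One gene, Thy1, which fibroblasts also express, made up 49.7%, 44.5% and 46.3% of the sum in the anti-CD40 libraries and 44.3%, 32.4% and 39.6% of it in the vehicle libraries. Without Thy1 the sum was 961, 1599 and 1134 in the anti-CD40 libraries, against 1690, 1595 and 1260 in the vehicle libraries, and the groups overlapped either way. Anti-CD40 2, with the highest T cell sum of its group, was also that group's highest library for Tnfrsf4, Tnfrsf9, Tnfrsf18, Tnfrsf14 and Tnfsf14. It held the group's highest value for 46.0% of all 770 genes. In the vehicle group the T cell sum was highest in vehicle 1, where Tnfrsf4 alone of these genes was highest. Tnfrsf9, Tnfrsf14 and Tnfsf14 were highest in vehicle 2, and Tnfrsf18 in vehicle 3. Of 6 regulatory T cell genes, 3 were above background in all libraries, 2 were higher and 4 lower (median −0.039), and their summed level was 975, 1360 and 906 in the anti-CD40 libraries, against 1262, 1084 and 962 in the vehicle libraries. Foxp3, which defines regulatory T cells, was 5.72, 6.74 and 5.92 log2 in the anti-CD40 libraries, against 6.38, 5.99 and 5.62 in the vehicle libraries, and above background in 3 of 6. Cd8a, which marks cytotoxic T cells, was above background in 1 of 6. The part of T cell content in the levels of the receptors was not tested.

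Among the ligands, Tnfsf14 was measured best. LIGHT, its product, binds HVEM and the lymphotoxin beta receptor and is made by activated T cells and immature dendritic cells. Tnfsf14 was 6.24, 6.84 and 6.11 log2 in the anti-CD40 libraries, against 6.14, 6.64 and 5.85 in the vehicle libraries. The anti-CD40 values of replicates 1 and 3 lay between the vehicle values, and anti-CD40 2 lay above them all. The difference was 0.18 (SE 0.31, 95% confidence interval −0.54 to 0.90), but −0.039 without anti-CD40 2 and 0.0031 without vehicle 3. Its counts, not corrected for depth, summed to 99 in anti-CD40 and 96 in vehicle libraries.

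Tnfsf4, the gene of OX40L, a ligand of activated antigen-presenting cells and endothelium, was 5.001, 5.36 and 6.32 log2 in the anti-CD40 libraries, against 5.60, 6.13 and 5.81 in the vehicle libraries. Anti-CD40 1 and 2 were under every vehicle library and anti-CD40 3 was over them all. The difference of −0.29 (95% confidence interval −1.15 to 0.58) was −0.67 without anti-CD40 3 and −0.0050 without anti-CD40 1, with the other 4 libraries left out in turn giving values between these. Without anti-CD40 3 the groups did not overlap, which held for 15.6% of all genes in that setting. With background subtracted, and values under 1 set to a floor of 1, the difference was −2.57. The Tnfsf4 values of anti-CD40 1 and 2 lay at that floor. In anti-CD40 1 and 2 its 12 and 15 counts were below or among the negative controls, of which 6 and 5 of 8 had at least as many.

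Tnfsf18, the gene of GITRL, known from endothelium and antigen-presenting cells, was 5.72, 5.80 and 6.16 log2 in the anti-CD40 libraries, against 5.90, 6.44 and 5.67 in the vehicle libraries. The difference of −0.11 (95% confidence interval −0.75 to 0.54) was 0.11 without vehicle 2. Counts were 21, 21 and 24 in the anti-CD40 libraries and 30, 25 and 27 in the vehicle libraries. On these counts, which are not corrected for depth, every anti-CD40 library was below every vehicle library. On the log2 scale, after the library factors, the groups overlapped.

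Cd70, the gene of the ligand of CD27, is tightly restricted to activated lymphocytes and dendritic cells. It was 5.59, 5.18 and 5.78 log2 in the anti-CD40 libraries, against 5.43, 5.83 and 5.28 in the vehicle libraries. The groups overlapped, and the difference of 0.00011 had a 95% confidence interval of −0.62 to 0.62. No count of Cd70, between 13 and 21, was above all 8 negative controls of its library. Counting alone would give an SD of 0.32 in anti-CD40 and 0.30 in vehicle libraries, beside observed SDs of 0.31 and 0.29. The interval holds differences of up to 0.62 log2 in either direction.

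**Figure D4:**
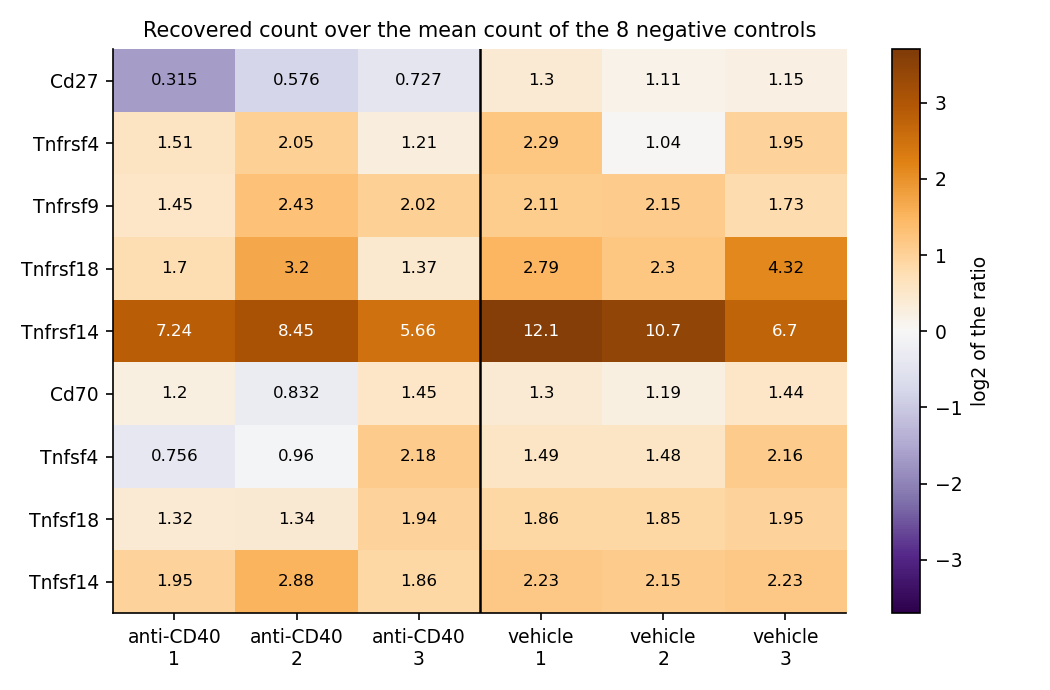
Recovered count of each gene divided by the mean count of the 8 negative controls in the same library, printed in each cell, with anti-CD40 libraries left of vehicle libraries and colour on a log2 scale. Tnfrsf14 reaches 5.66 to 12.1 times background, while Cd27 falls to 0.315 to 0.727 times in anti-CD40 libraries.

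Scaling shaped the order of the libraries for genes this close to background. Vehicle 2 had the largest library factor, 3.28, beside 1.84 and 1.72 in vehicle 1 and 3 and 2.29, 2.44 and 2.80 in anti-CD40 1, 2 and 3. It gave the highest log2 value of its group for 7 of the 9 genes, beside 49.1% of all genes. For Cd27, Cd70, Tnfsf4, Tnfsf18 and Tnfsf14 it did so with the fewest counts of its group, 15, 16, 20, 25 and 29. Its background limit, at 6.52 log2, was likewise the highest of the 6 libraries.

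Each receptor can be set beside its own ligand. Cd27 and Cd70 differed by −0.85 and 0.00011, Tnfrsf4 and Tnfsf4 by 0.10 and −0.29, Tnfrsf18 and Tnfsf18 by −0.40 and −0.11, and Tnfrsf14 and Tnfsf14 by −0.23 and 0.18. None of these 8 differences passed the adjusted test with limma. In a RefSeq gene table of the mouse assembly GRCm38.p6, used for names and neighbours only, Tnfrsf4 and Tnfrsf18 were adjacent protein-coding genes on chromosome 4, Tnfsf4 and Tnfsf18 on chromosome 1, and Cd70 and Tnfsf14 on chromosome 17. Tnfrsf9 and Tnfrsf14 also lay on chromosome 4, away from that pair. Adjacent genes showed differences of opposite sign in the pair Tnfrsf4 (0.10) and Tnfrsf18 (−0.40), and of the same sign in the pair Tnfsf4 (−0.29) and Tnfsf18 (−0.11). All 4 intervals included 0.

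Promoters were read because these receptors signal through, and several are induced by, NF-κB. The RefSeq promoter windows of GRCm38.p6, from 250 bases before to 50 after a gene's start, were searched on both strands for the motif GGGNNNNNCC, a loose form of the NF-κB site, and for the AP-1 motif TGANTCA. Of the 9 genes, 7 had a window and Tnfrsf9 had 2, which gave 8 windows. The loose NF-κB motif was in 4 of 8, beside 50.8% of all 32841 windows, and AP-1 in 2 of 8, beside 7.81%. Windows of Tnfrsf14, Cd27, Tnfrsf9 and Tnfsf14 held the first, and windows of Tnfrsf9 and Tnfsf14 the second. The windows of Tnfrsf14, the 1 gene measured well, of Cd27, the 1 gene whose groups did not overlap, and of Tnfrsf9, whose second window held both motifs, are shown 5′ to 3′, with each match to GGGNNNNNCC on either strand in capitals.
Tnfrsf14 (chr4:154928028-154928327, minus strand): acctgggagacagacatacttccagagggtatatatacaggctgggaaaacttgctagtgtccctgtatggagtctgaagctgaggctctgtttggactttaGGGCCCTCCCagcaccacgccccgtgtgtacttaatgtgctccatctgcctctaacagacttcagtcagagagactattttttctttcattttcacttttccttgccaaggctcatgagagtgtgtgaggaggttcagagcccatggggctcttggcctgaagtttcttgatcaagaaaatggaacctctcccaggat
Cd27 (chr6:125236978-125237277, minus strand): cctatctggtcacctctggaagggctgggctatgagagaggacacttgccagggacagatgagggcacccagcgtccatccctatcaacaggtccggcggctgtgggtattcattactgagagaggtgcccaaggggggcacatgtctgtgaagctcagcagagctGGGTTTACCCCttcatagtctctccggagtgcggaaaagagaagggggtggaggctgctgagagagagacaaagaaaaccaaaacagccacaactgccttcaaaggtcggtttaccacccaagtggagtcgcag
Tnfrsf9 (chr4:150927749-150928048, plus strand): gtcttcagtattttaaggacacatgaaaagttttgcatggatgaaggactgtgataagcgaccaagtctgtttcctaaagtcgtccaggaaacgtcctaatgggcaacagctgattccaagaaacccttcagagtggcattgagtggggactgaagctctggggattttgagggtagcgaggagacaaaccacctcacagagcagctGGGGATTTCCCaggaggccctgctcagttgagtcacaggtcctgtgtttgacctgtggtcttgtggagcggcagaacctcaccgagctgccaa
The matches begin 148 bases before the annotated start in Tnfrsf14, 84 in Cd27 and 43 in Tnfrsf9, and in Cd27 and Tnfrsf9 overlapping matches form 1 longer run. They are matches of letters, and binding was not measured.

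The other genes of the pathway likewise held no called change, and limma called 0 in each of the 7 lists examined, with the unadjusted counts given for each. Of 4 measured TRAF adaptors and inhibitors, 3 were higher and 1 lower in anti-CD40 tumours (median 0.09). The lower one was Tnfaip3, which encodes the NF-κB inhibitor A20, at 7.92, 8.49 and 7.43 log2 in the anti-CD40 libraries, against 8.50, 8.86 and 8.36 in the vehicle libraries. Of 12 genes of NF-κB, JNK and p38 signalling, all above background throughout, 7 were higher and 5 lower (median 0.03), with the NF-κB subunit gene Rel at 8.37 ± 0.36 in anti-CD40 and 8.92 ± 0.31 in vehicle tumours. Neither list had a gene at an unadjusted p under 0.05.

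HVEM and LIGHT have further partners, of which 4 of 5 were higher and 1 lower in the mean (median 0.03), with 0 at an unadjusted p under 0.05. Ltbr, the lymphotoxin beta receptor and second receptor of LIGHT, was the 1 partner above background in all libraries, at 11.05 ± 0.23 log2 in anti-CD40 and 10.94 ± 0.18 in vehicle tumours (95% confidence interval of the difference −0.43 to 0.66). Btla, the gene of the inhibitory partner of HVEM, was 5.59, 6.09 and 5.45 log2 in the anti-CD40 libraries, against 5.85, 6.59 and 5.22 in the vehicle libraries, and above background in 3 of 6. Cd160 and Lta were above background in none.

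Of 5 other costimulators of the family, 3 were higher and 2 lower (median 0.06), 0 were above background in all libraries and 0 had an unadjusted p under 0.05. They included Cd40, the gene of the antibody's target, at 6.92, 7.09 and 6.16 log2 in the anti-CD40 libraries, against 7.36, 7.05 and 6.53 in the vehicle libraries. The gene of the 4-1BB ligand was not analysed here. Of 17 further family members, 9 were higher and 8 lower (median 0.03) and 4 had groups that did not overlap, beside 10.3% of all genes. The 1 with an unadjusted p under 0.05 was Tnfsf13, which encodes the B cell factor APRIL, at 7.35 ± 0.19 in anti-CD40 and 6.70 ± 0.24 in vehicle tumours (adjusted p = 0.974 with limma). Tnfsf12, the gene of TWEAK, was 9.20 ± 0.22 in anti-CD40 and 8.68 ± 0.30 in vehicle tumours, and Fasl, the gene of the death ligand FasL, was 5.04 ± 0.20 and 4.52 ± 0.18, above background in no library. Tnfsf13, Tnfsf12 and Fasl were all higher in anti-CD40 tumours without overlap. The other gene without overlap was Tnfsf13b, the gene of BAFF, which was lower. Its level was 5.59, 5.92 and 5.92 log2 in the anti-CD40 libraries, against 6.18, 6.32 and 6.09 in the vehicle libraries.

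Genes of the B7 and CD28 system, the other main family of costimulators, were 2 higher and 7 lower (median −0.24), with 1 at an unadjusted p under 0.05. That gene was Cd274, which encodes the inhibitory ligand PD-L1, at 7.86 ± 0.48 in anti-CD40 and 8.88 ± 0.60 in vehicle tumours. Of 9 genes read as output of costimulated T cells, 3 were higher and 6 lower (median −0.19), 4 were above background in no library, and 1 had an unadjusted p under 0.05. This was Birc5, the gene of the apoptosis inhibitor survivin, at 7.82 ± 0.39 in anti-CD40 and 8.82 ± 0.09 in vehicle tumours. Birc5 is also a gene of dividing cells of any type, and its cellular source in these tumours was not measured.

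**Figure D5:**
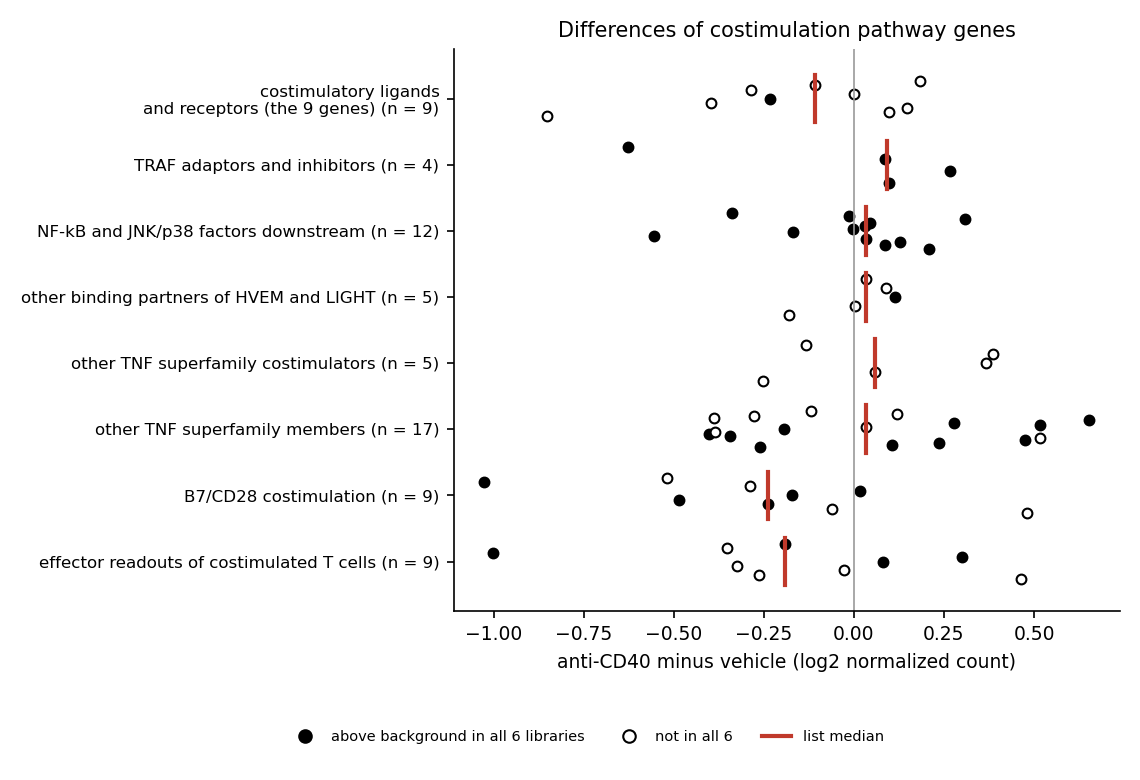
Difference of each gene between anti-CD40 and vehicle tumours on the log2 scale, for the 9 costimulatory genes and the 7 pathway lists. Filled points were above background in all 6 libraries, and red bars are list medians. List medians lie between −0.24 and 0.09.

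Ligands of this family are carried by antigen-presenting cells and endothelium, whose markers are given beside them. Of 6 dendritic cell genes measured, 6 were lower in anti-CD40 tumours (median −0.24), 1 was above background in all libraries and 1 had an unadjusted p under 0.05, the cytokine receptor gene Flt3. Their summed level was 430, 640 and 570 in the anti-CD40 libraries, against 765, 727 and 513 in the vehicle libraries. Of 9 macrophage and monocyte genes, all above background throughout, 7 were higher and 2 lower (median 0.38). Their sums were 4878, 5875 and 4769 in the anti-CD40 libraries, against 5548, 5599 and 3445 in the vehicle libraries. Of 9 endothelial genes, also all above background, 8 were higher and 1 lower (median 0.23). Their sums were 16072, 10410 and 13726 in the anti-CD40 libraries, against 13919, 10585 and 9591 in the vehicle libraries. Vehicle 3, the lowest library in both sums, also had the lowest median over all genes, 7.68 log2. The 8 B cell genes divided into 4 higher and 4 lower, 0 were above background in all libraries, and the sums ran from 299 to 654 in anti-CD40 and from 287 to 1159 in vehicle libraries. The sums of each of these 4 lists overlapped between the groups, and their part in the levels of the ligands was not tested. The other marker lists had 4 of 8 natural killer cell genes higher and 4 lower, 6 of 7 neutrophil, 4 of 5 mast cell, 6 of 6 fibroblast and 2 of 4 epithelial genes higher. Limma called 0 genes in any of the 11 marker lists, with the natural killer cell gene Klrk1 and the lymphatic endothelial gene Lyve1 at an unadjusted p under 0.05 beside Cd5 and Flt3.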

How the data were processed

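RNA from formalin-fixed 4NQO-induced oral tumours of mice was measured in 6 samples, 3 given agonistic anti-CD40 and 3 given vehicle, as labelled. The values are log2 normalized counts as the authors deposited them, in 1 table of 770 genes with 6 positive and 8 negative control rows. The sources used here name no platform, counting software or normalization rule. After an offset of 4.55 was taken off, all 4704 values were a library factor times a count whole within 0.05. The offset understates differences of genes with few counts. Depth was 333400 to 578598 counts per library.

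Groups were compared with limma 3.58.1 (R 4.3.3, lmFit and eBayes), adjusted over all 770 genes, with 4 residual and 3.37 prior degrees of freedom. The procedure was tested on simulated data. Those data had independent normal noise for each gene, with no count floor or shared library effect, so they do not cover genes near background. With 3 samples a group, exact permutation could reach no p below 0.1 and was not used. Expected counting SDs assume Poisson counts and cover counting error only. Plots used Python 3.11.15, pandas 2.3.3 and matplotlib 3.10.9.

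All 9 genes were named, and per pathway list up to 3 genes of lowest unadjusted p, while Cd160, Cd8a and Foxp3 were named for their role. Tnfsf13b was named as the remaining gene of its list whose groups did not overlap. The genes and lists were chosen with earlier results of these data known. Levels are not compared between genes, because probes differ in efficiency. The alternatives tried are in the closing section.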

Additional observations from a re-analysis of the deposited data

How the results depend on the processing

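The alternatives were quantile normalization, centring on library medians or housekeeping genes, 2 filters on low values, background subtraction, 64 added before the logarithm, a mean-variance trend, robust eBayes, limma-voom on recovered counts, a replicate block and leaving out each library. Background subtraction set values under 1 to a floor of 1 before the logarithm. Centring on negative controls was added after seeing the data. Limma called 0 of the 9 genes under every alternative, with 0 to 2 at an unadjusted p under 0.05, beside 1.69% to 6.75% of all genes. The lowest adjusted p from limma was 0.251, for Cd27 with background subtracted, where its anti-CD40 values lay at the floor. Over all genes limma called 0 under each, except 1 with background subtracted (Masp2, above background in no library). The count of the 9 genes whose groups did not overlap was 1 with all libraries (10.3% of all genes), 2 after quantile normalization (Cd27 and Tnfsf14, 11.3% of all), 0 under both filters, which drop Cd27 (68 of 618 and 65 of 577 genes kept), and from 1 to 2 with 1 library left out (14.4% to 24.8% of all).

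The filters left 5 and 3 of the 9 genes in the fit. Of 152 differences of the 9 genes under alternatives, 135 kept their direction and 17 turned. The mean-variance trend, robust eBayes, the replicate block and both filters leave each difference unchanged by construction. Their differences could not turn and are counted among those that kept direction. Cd27, Tnfrsf18 and Tnfsf4 turned under none. Cd70, at 0.00011, turned with library medians (−0.017), background subtraction (−0.93), limma-voom (−0.050) and negative controls (−0.19), and with a library left out ranged from −0.13 to 0.17 (−0.035 without anti-CD40 1, −0.13 without anti-CD40 3, −0.043 without vehicle 1, −0.12 without vehicle 3). With negative controls Tnfrsf4 (−0.088), Tnfrsf9 (−0.039) and Tnfsf14 (−0.0035) also turned. With 1 library left out, 5 more genes turned. Tnfrsf4 ranged from −0.12 (without anti-CD40 2, the only turn) to 0.30, and Tnfrsf9 from −0.13 (without vehicle 3, with −0.046 without anti-CD40 2) to 0.43. Tnfsf14 ranged from −0.039 (without anti-CD40 2) to 0.40, Tnfrsf14 from −0.68 to 0.090 (without vehicle 2) and Tnfsf18 from −0.27 to 0.11 (without vehicle 2). The cause was not tested.

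Replicate numbers are shared between the groups, but the labels name no pairs, so the numbers were not taken as pairs. Deviations of same-numbered libraries correlated at −0.43, 0.069 and 0.28, and those of differently numbered libraries at −0.56 to 0.48. Because the deviations of each gene sum to 0 within a group, these correlations cannot decide whether samples were paired. With the replicate block, limma called 0 genes, 0 of the 9 among them. It left 32 at an unadjusted p under 0.05, beside 25 without the block. Replicates are balanced over the groups, so the block cannot change a difference, and that of Cd27 stayed at −0.85.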
